A study of Homo sapiens with 10 samples.

Results

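The comparison set the RNA of senescent human fibroblasts in which METTL3 had been lowered beside the RNA of growing fibroblasts, and asked which features of the senescent state were still present. It rests on 4 of the 10 samples of the series, 2 in each group, with the groups taken from the labels. The cells were IMR90, an established line of human fetal lung fibroblasts. Control cells had received a retrovirus without an insert and control siRNA. The METTL3 knockout cells (the word used in the sample titles) had received a retrovirus expressing RAS, siRNA and, per the column names, a vector. Per the labels' protocol, the cells were seeded and transfected at day 4 after the retrovirus, transfected again on the next day together with lentivirus infection, and harvested 48 hours later for RNA with a column kit and DNase I. A further group, the senescent control with RAS and control siRNA (2 samples), is used beside the comparison to say how far the knockout samples stood from full senescence. The remaining 4 samples, which carried the same RAS virus and siRNA plus wild type or mutant METTL3, entered the model only to estimate the spread between replicates.

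Several points of the design limit what a difference can be tied to. The protocol text describes siRNA and lentivirus for METTL14, whereas titles and columns name METTL3. The knockout columns carry the word vec, and the control and senescent control columns do not. Between knockout and control, RAS, the siRNA and possibly an empty lentivirus differ together and cannot be told apart. Between knockout and senescent control, the siRNA and possibly that lentivirus differ together and cannot be told apart either. Whether the samples of a group were grown separately is not stated, and p-values therefore reflect variation among these samples alone, which may be technical. The RNA came from whole cultures, in which fewer cells of a kind and less RNA per cell cannot be told apart.

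Cellular senescence is a lasting arrest of division, and oncogenic RAS is a classical way to bring it about in fibroblasts. Senescent cells repress genes of DNA replication and mitosis, lose lamin B1, raise inhibitors of cyclin-dependent kinases and secrete a mixture of interleukins, chemokines, proteases and growth factors known as the senescence-associated secretory phenotype (SASP). METTL3 is the catalytic subunit of the enzyme that writes N6-methyladenosine (m6A) on messenger RNA, and METTL14 is its partner.

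Levels are given as CPM, the count of a gene relative to the total count of its sample, scaled by trimmed mean of M-values (TMM) factors. Libraries held 16293975 to 23570266 counts, with 22977220 and 23570266 in the control and 16335277 and 18253194 in the knockout samples. The control pair was the least alike, with a standard deviation of log2 differences over genes of 0.346 against 0.15 to 0.193 in the other pairs. METTL3 read 72.7 and 81.4 CPM in the control samples, 47.3 and 57.3 in the senescent control samples and 23.2 and 28.9 in the knockout samples. The knockout samples were the lowest of the 3 groups, with a log2 difference from control of -1.56 (SE 0.15, edgeR adjusted p = 1.41e-05), and part of the METTL3 RNA was still present. HRAS, which includes reads from the introduced gene where that gene is HRAS, read 14.8 and 14.6 CPM in control, 61.03 and 61.3 in senescent control and 40.8 and 39.5 in knockout samples. The knockout samples therefore carried less HRAS RNA than the senescent control samples (log2 difference -0.61 (SE 0.11, edgeR adjusted p = 0.00210)), and the part of this gap in the results below was not tested. Fibroblast markers were abundant in every sample: the 12 markers summed to 14980.5 to 18229 CPM in control and 10247 to 10839.9 CPM in knockout samples, while epithelial and endothelial markers summed to at most 62.1 and 33.8 CPM, with 2 of each list at 0 in control and knockout samples. Leukocyte markers summed to 67.5 to 80.0 CPM, nearly all of it CD68 (77.00 and 75.9 CPM in the knockout samples), with 3 of 13 at 0 in control and knockout samples.

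Of 16760 genes tested with edgeR's quasi-likelihood test, 3300 (19.7%) were higher and 4472 (26.7%) lower in the knockout than in the control samples at an adjusted p under 0.05. Counts within the lists below are to be read beside these shares. With upper-quartile scaling in place of TMM the split turned to 3988 higher and 3540 lower, so the balance of rises and falls depends on scaling. A rise of at least 1 on the log2 scale was called for 1548 genes (9.24%) and a fall of that size for 937 (5.59%). Lack of overlap between knockout and control samples was common, with 5453 genes (32.5%) higher and 6586 (39.3%) lower without overlap. Between senescent control and control samples, 45% of genes were called, 19.7% higher and 25.3% lower. Against the senescent control, 1202 genes (7.17%) were higher and 1444 (8.62%) lower in the knockout samples, the shares to set beside list counts against that group. Leaving out either control sample raised those numbers to at least 2127 and 2672, and leaving out senescent control sample 1 lowered them to 501 and 697. Of 464 genes called at least 2 (log2) above control, 364 were not called between knockout and senescent control, 61 were lower and 39 higher in the knockout. Of 183 genes called at least 2 below control, 99 were not called between them, 68 were higher and 16 lower. These counts use the knockout samples on both sides and are a description. In a principal component analysis of 10977 genes, the first component (73.5% of variance) placed the control samples at -53.2 and -40.4, the knockout samples at 13.7 and 15.3 and the senescent control samples at 33.5 and 31.1. The second (17.8%) set the knockout samples apart at -22.8 and -21.1, against 16.6 to 18.4 for the senescent control and -1.39 to 10.4 for the control samples. The knockout samples were thus neither at the control nor at the senescent position.

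**Figure D1:**
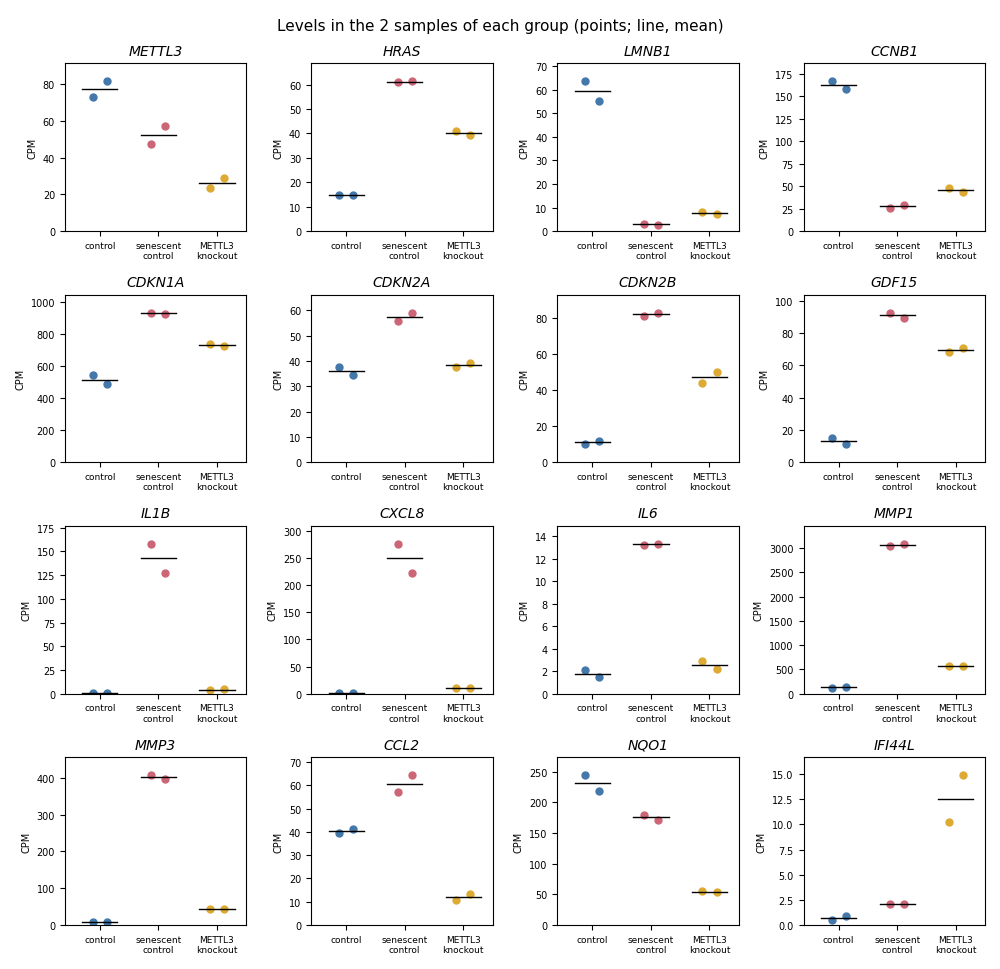
Levels in CPM (vertical axis, from 0) of 16 genes in the 2 control, 2 senescent control and 2 METTL3 knockout samples; points are samples and lines are group means. LMNB1 and CCNB1 stayed far below control in the knockout samples, IL1B, CXCL8, MMP1 and MMP3 lay between the groups, and CCL2 and NQO1 were lower than in either group.

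Most genes of cell division were lower in the knockout than in the control samples. Of 40 tested S phase and DNA replication genes, 39 were lower and 0 higher than in control, with a median log2 difference of -1.38, against 26.7% lower and a median of -0.04 over all genes. CCNE1, which encodes cyclin E1, was the 1 not called (-0.24, edgeR adjusted p = 0.141). Of 54 genes of G2 and mitosis, 51 were lower and 0 higher (median -1.55). KIF20A, a kinesin of cytokinesis, read 107 and 103 CPM in control, 5.43 and 4.84 in senescent control and 14.5 and 11.9 in knockout samples, a log2 difference from control of -2.99 (SE 0.11, edgeR adjusted p = 5.48e-08). CCNB1, the mitotic cyclin B1, read 167 and 158 CPM in control, 26.1 and 29.1 in senescent control and 47.9 and 43.4 in knockout samples, with a log2 difference from control of -1.83 (SE 0.09, edgeR adjusted p = 1.01e-07). For both genes the groups did not overlap, and the knockout samples stood above the senescent control samples but nearer to them than to control.

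The promoters of 3 such genes hold the CCAAT box, an element through which such genes are often described as being controlled. The CCAAT box is bound by the factor NF-Y, and the capitals mark it or its reverse complement. The windows are RefSeq sequence of build GRCh38.p14, all on the plus strand, ending at the annotated start of the gene or shortly after it.
KIF20A, chr5:138178962-138179111: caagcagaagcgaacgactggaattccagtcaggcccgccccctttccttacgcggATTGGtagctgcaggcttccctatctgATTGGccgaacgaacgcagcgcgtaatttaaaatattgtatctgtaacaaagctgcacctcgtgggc
CCNB1, chr5:69167000-69167149: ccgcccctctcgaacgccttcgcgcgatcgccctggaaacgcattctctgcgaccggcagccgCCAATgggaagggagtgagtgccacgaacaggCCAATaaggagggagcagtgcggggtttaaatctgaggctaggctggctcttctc
RRM2, chr2:10122589-10122738: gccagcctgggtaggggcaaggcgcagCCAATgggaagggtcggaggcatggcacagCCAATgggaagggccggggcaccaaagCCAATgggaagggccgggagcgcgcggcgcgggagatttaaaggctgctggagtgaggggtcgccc
RRM2, the small subunit of ribonucleotide reductase, held 3 CCAAT boxes in this stretch, and KIF20A and CCNB1 held 2 each. In windows of 250 bases before the start, searched on both strands, CCAAT was present in 34.9% of 11545 promoters of tested genes, in 70.8% of those of the G2 and mitosis genes and in 57.1% of those of the S phase genes. The CHR element TTTGAA was present in 9.04% of all promoters, in 25 of 48 G2 and mitosis promoters and in 2.86% of S phase promoters. The E2F site was searched in its form TTCGCGC, in the variant with letters TTCCCGC and in the variant with letters TTGGCGC, and any of these was present in 14.5% of all promoters, in 19 of 35 S phase promoters and in 22.9% of G2 and mitosis promoters. In the stretches printed above, KIF20A and CCNB1 held no TTTGAA on either strand and RRM2 none of these E2F forms, while CCNB1 held an unmarked TTCGCGC. Other forms of these elements were not searched, so their absence is not shown. These matches describe the sequence and were not tested for binding.

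The repression was shallower than in the senescent control for many of these genes. Against the senescent control, 46 of 54 G2 and mitosis genes were higher and 1 lower (median 1.07), where 7.17% of all genes were higher. Of the S phase genes 21 were higher and 0 lower (median 0.46), and leaving out 1 sample of either group cut this to between 6 and 11. MKI67, the proliferation antigen Ki-67, read 211 and 345 CPM in control, 34.2 and 36.9 in senescent control and 104 and 83.1 in knockout samples. Its control samples were far apart, yet both knockout samples lay below them and above both senescent control samples (log2 difference from control -1.57 (SE 0.20, edgeR adjusted p = 1.46e-04), from senescent control 1.39 (SE 0.20, edgeR adjusted p = 0.00105)). RRM2 read 207 and 189 CPM in control, 23.9 and 25.9 in senescent control and 36.6 and 30.5 in knockout samples (log2 difference from control -2.56 (SE 0.10, edgeR adjusted p = 5.48e-08)). TK1, the thymidine salvage kinase, read 35.8 and 31.8, 3.29 and 2.97 and 7.91 and 6.62 CPM in the same order, and its rise over the senescent control was 1.22 (SE 0.17, edgeR adjusted p = 3.76e-04). The helicase subunits MCM7 and MCM2 were not called between knockout and senescent control: the 95% interval of the difference was -0.05 to 0.47 for MCM7 and 0.13 to 0.86 for MCM2. Both intervals held the list median of 0.46, and that of MCM2 lay above 0. MCM7 read 76.99 and 68.9 CPM in control and 17.8 and 16.4 in knockout samples, with a log2 difference of -2.09 (SE 0.11, edgeR adjusted p = 1.34e-07). ECT2 and KIF14, which act in cytokinesis, were not called against control. ECT2 read 73.5 and 102 CPM in control and 88.3 and 93.6 in knockout samples, and was called higher without control sample 2 (0.35, edgeR adjusted p = 0.00049). KIF14 read 12.2 and 24.3 CPM in the control samples and 19.4 and 15.4 in the knockout samples, and its difference turned from -0.07 to 0.56 (edgeR adjusted p = 0.0048) without control sample 2, so its control samples decide its direction.

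Lamin B1 and most other genes of this group stayed below control. Of 20 lamina and heterochromatin genes, 17 were lower and 0 higher than in control (median -0.83). Against the senescent control 7 were higher and 2 lower (median 0.20), where 7.17% and 8.62% of all genes were. LMNB1 read 63.6 and 55.3 CPM in control, 2.96 and 2.69 in senescent control and 8.20 and 7.09 in knockout samples. The knockout level was a small part of the control level (log2 difference -2.96 (SE 0.13, edgeR adjusted p = 5.48e-08)), although it exceeded the senescent control by 1.43 (SE 0.17, edgeR adjusted p = 1.25e-04). HMGB2, a chromatin protein lost in senescence, read 50.9 and 54.2 CPM in control and 12.99 and 10.5 in knockout samples (-2.16 (SE 0.14, edgeR adjusted p = 4.24e-07)), and LBR, the lamin B receptor, 62.3 and 68.5 and 28.9 and 26.8 CPM (-1.23 (SE 0.11, edgeR adjusted p = 5.80e-06)). Like LMNB1, HMGB2 exceeded the senescent control, by 1.01 to 1.33 on the log2 scale over the fits run. LMNB2 was at 67.2 and 68.4 CPM in the knockout and 67.1 and 68.2 in the senescent control samples, both below the control samples at 146 and 132. The exceptions were SUN1, CBX3 and HMGA2, none called against control. HMGA2, a chromatin protein of senescence-associated heterochromatin, read 799.9 and 1025 CPM in control, 1578 and 1557 in senescent control and 818 and 823 in knockout samples. Its knockout level overlapped the control samples and was below the senescent control (-0.93 (SE 0.11, edgeR adjusted p = 1.62e-04)), and it was called below control without control sample 1 (-0.31, edgeR adjusted p = 0.0032).

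Replication-dependent histone genes, which are transcribed in S phase, showed the deepest median of any list. Of 16 tested, 15 fell (median -2.50), 14 or 15 of them whichever sample was left out. H1-5 read 113 and 106 CPM in control, 4.50 and 6.07 in senescent control and 14.6 and 12.7 in knockout samples (-3.01 (SE 0.13, edgeR adjusted p = 5.48e-08) from control). H3C12 read 32.7 and 29.6, 1.26 and 1.14 and 3.17 and 3.39 CPM in that order (-3.24 (SE 0.15, edgeR adjusted p = 5.48e-08)). Both stood above the senescent control and far below control. H2BC12 was the 1 member called higher (0.23 (SE 0.09, edgeR adjusted p = 0.0456)), a call made in 7 of 14 alternatives. It was lost without either knockout or either senescent control sample, with the replicate block, in the fit on 4 samples and with a filter of 1 count (edgeR adjusted p = 0.0503 to 0.209). Histone genes are near-identical in sequence, so how reads were divided among them is uncertain.

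Inhibitors of cyclin-dependent kinases split among themselves. CDKN2B, which encodes p15INK4B, read 10.2 and 12.1 CPM in control, 81.5 and 83.3 in senescent control and 44.3 and 50.3 in knockout samples. It rose by 2.08 (SE 0.11, edgeR adjusted p = 1.24e-07) over control while staying below the senescent control (-0.80 (SE 0.10, edgeR adjusted p = 2.10e-04)). CDKN1A, which encodes p21, read 547 and 487 CPM in control, 936 and 925 in senescent control and 741 and 726 in knockout samples, a rise over control of 0.50 (SE 0.10, edgeR adjusted p = 0.00141). It too stood between the groups without overlap. CDKN2A, the p16INK4A and p14ARF locus, read 37.6 and 34.4 CPM in control, 55.7 and 59.1 in senescent control and 37.5 and 39.1 in knockout samples. Here the knockout samples lay at the control level, with a log2 difference of 0.09 (95% interval -0.12 to 0.29, edgeR adjusted p = 0.461), and below the senescent control (-0.58 (SE 0.09, edgeR adjusted p = 0.00102)). CDKN2C, which encodes p18INK4C, moved the other way: it read 13.2 and 12.05 CPM in control, 0.548 and 0.502 in senescent control and 2.37 and 2.29 in knockout samples, a log2 difference from control of -2.43 (SE 0.18, edgeR adjusted p = 9.19e-07). Among their partners, CCND2 (cyclin D2) read 50.4 and 46.4 CPM in control and 151 and 151 in knockout samples (1.64 (SE 0.09, edgeR adjusted p = 1.52e-07)), while CDK4 fell (-0.98 (SE 0.10, edgeR adjusted p = 1.18e-05)). Over the whole list 5 of 15 genes rose and 7 fell, where 19.7% and 26.7% of all genes did. The falls were fewer without either knockout sample.

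**Figure D2:**
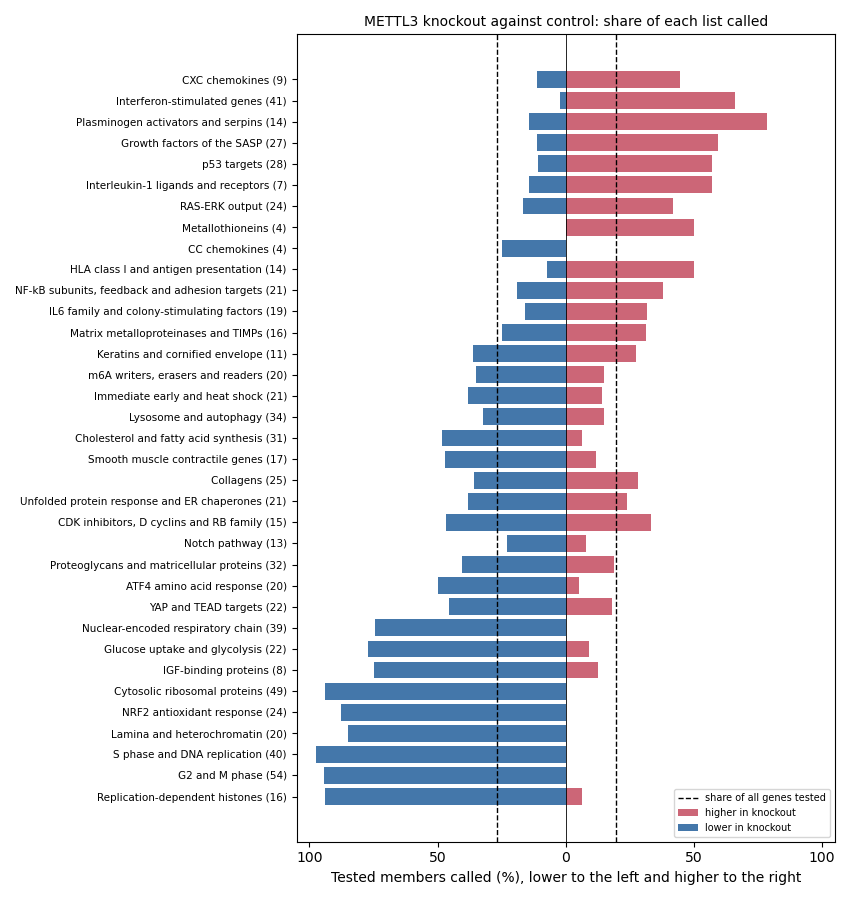
Share of the tested members of each gene list (number in brackets) called higher (right) or lower (left) in METTL3 knockout than in control samples, in percent, sorted by median; dashed lines mark the shares over all genes tested, 19.7% higher and 26.7% lower. Histones, both cell division lists and ribosomal proteins lie at the low end, and interferon-stimulated genes, serpins and SASP growth factors reach furthest to the right among larger lists.

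**Figure D3:**
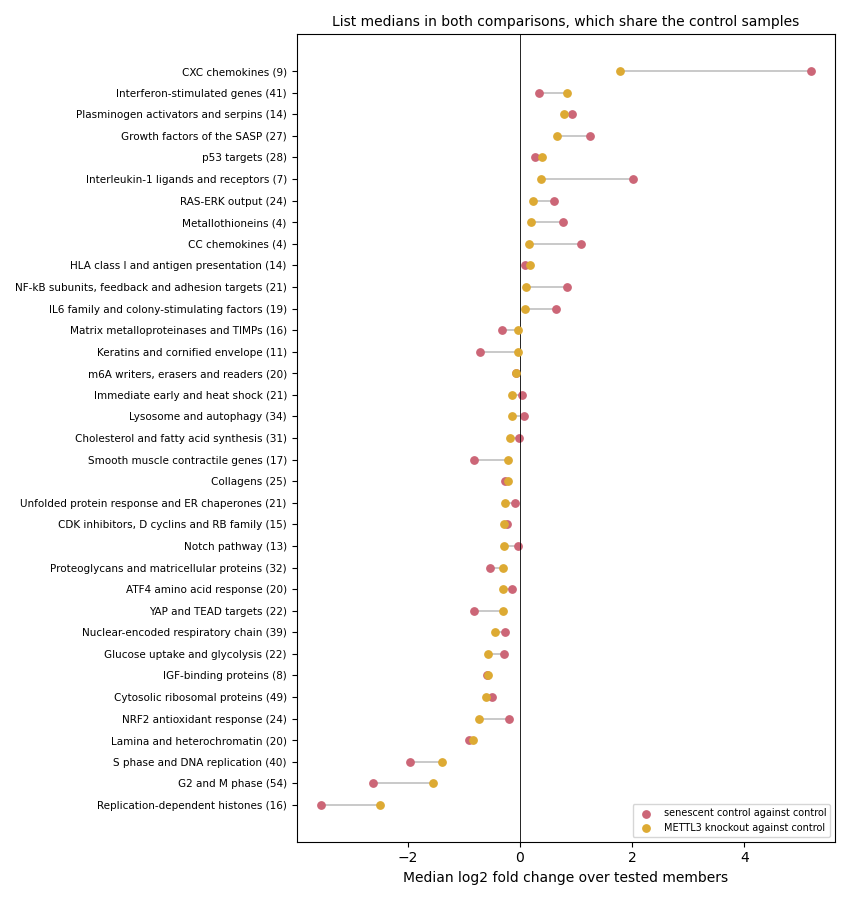
Median log2 fold change of each list (number of tested members in brackets) against control, for METTL3 knockout and for senescent control samples; a grey line joins both values of a list, and both share the control samples. CXC chemokines and interleukin-1 genes show the widest gaps, with knockout medians of 1.78 and 0.37.

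Several interleukin and chemokine genes of the SASP stood between control and senescent control. IL1A and IL1B encode the interleukin-1 ligands that act upstream in the secretory program. IL1B read 0.175 and 0.179 CPM in control, 158 and 127 in senescent control and 3.35 and 4.38 in knockout samples. Its log2 difference was 4.40 (SE 0.42, edgeR adjusted p = 1.21e-05) from control and -5.20 (SE 0.19, edgeR adjusted p = 3.60e-08) from the senescent control, with no overlap between groups. IL1A had 1 count over the control samples, 939 over the senescent control samples and 96 over the knockout samples. The scaled ratio of knockout to control was 119 (95% counting interval 20.8 to 4741), resting on that 1 count, and the log2 difference from the senescent control was -3.15 (SE 0.16, edgeR adjusted p = 1.73e-07). The receptor genes differed among themselves. IL1RL1, the receptor for interleukin-33, read 0.525 and 0.537 CPM in control, 2.52 and 1.87 in senescent control and 1.79 and 1.67 in knockout samples, above control (1.69 (SE 0.33, edgeR adjusted p = 0.00135)) and not called against the senescent control (-0.33 (SE 0.26, edgeR adjusted p = 0.449)). IL18R1, an interleukin-18 receptor chain, read 1.14 and 0.985 CPM in control and 1.04 and 1.62 in knockout against 4.61 and 4.20 in senescent control samples, so knockout and control overlapped. Of 7 genes in this list 4 were called higher than control and 1 lower, and 4 were below the senescent control. The 1 lower, the interleukin-1 receptor IL1R1, was called in 5 of 14 alternatives. It was not called with RLE or upper-quartile scaling, with DESeq2, in the fits on 4 or 6 samples, or without either knockout or either senescent control sample (adjusted p from edgeR or DESeq2 0.0598 to 0.31). IL1RAP, a co-receptor chain among the 4 higher, was called in 6 of 14 (highest adjusted p 0.245).

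Of 9 tested CXC chemokines, attractants of neutrophils and lymphocytes, 4 rose and 1 fell against control, and 6 were below and 1 above the senescent control. Over all genes 19.7% rose and 26.7% fell against control. CXCL8, which encodes interleukin-8, read 1.01 and 0.672 CPM in control, 276 and 223 in senescent control and 10.4 and 10.6 in knockout samples. Its log2 difference was 3.63 (SE 0.21, edgeR adjusted p = 2.02e-07) from control and -4.57 (SE 0.14, edgeR adjusted p = 3.52e-09) from the senescent control. CXCL10, a T cell attractant, read 0.0438 and 0.179 CPM in control, 10.8 and 9.63 in senescent control and 1.15 and 2.35 in knockout samples (rise over control 3.92 (SE 0.55, edgeR adjusted p = 1.61e-04)). CXCL1 had 1 count in control and 6 in knockout samples, a scaled ratio of 7.43 (95% counting interval 0.901 to 342) with edgeR adjusted p = 0.0948, against 578 counts in the senescent control. CXCL11 had no count in control, and its 31 counts in the knockout samples put it at least 12.8-fold higher (floor of 3 counts over the group). CXCL11 was not called against the senescent control, where it had 29 counts (0.23 (SE 0.44, edgeR adjusted p = 0.793)). The stromal chemokine CXCL12 moved the opposite way, from 76.99 and 69.2 CPM in control to 19.9 and 21.3 in knockout samples (-1.83 (SE 0.10, edgeR adjusted p = 1.59e-07)), with 10.03 and 10.7 in the senescent control, below the knockout (0.99 (SE 0.11, edgeR adjusted p = 1.04e-04)). Of the 4 called higher, CXCL16 lost its call with DESeq2 (adjusted p = 0.11), without either control sample or without knockout sample 2 (edgeR adjusted p of up to 0.116), was not called against the senescent control, and lies under 1 CPM in every sample.

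CXCL8 and IL6, which the results set apart, carry NF-kB sites close to their starts. Capitals mark the NF-kB site in both and, in CXCL8, the AP-1 site before it (RefSeq, build GRCh38.p14, plus strand).
CXCL8, chr4:73740419-73740568: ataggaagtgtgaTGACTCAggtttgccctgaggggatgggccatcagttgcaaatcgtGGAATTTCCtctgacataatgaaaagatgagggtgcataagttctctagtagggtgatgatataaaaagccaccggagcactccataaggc
IL6, chr7:22727050-22727199: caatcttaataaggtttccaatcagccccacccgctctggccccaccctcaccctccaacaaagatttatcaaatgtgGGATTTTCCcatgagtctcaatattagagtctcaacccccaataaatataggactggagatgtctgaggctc
The NF-kB site GGANTTTCC was found on either strand in 1.46% of all promoters and in 10 of 71 promoters of the 7 lists of secreted factors, and the AP-1 site TGANTCA in 4.17% and in 11 of 71. Neither was found in a promoter of the G2 and mitosis list. A match is not evidence of binding in these cells.

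IL6, the SASP cytokine that gives its family its name, read 2.10 and 1.48 CPM in control, 13.3 and 13.3 in senescent control and 2.89 and 2.19 in knockout samples. The knockout samples were both above the control samples by a margin that did not pass the test (log2 difference 0.49, 95% interval -0.02 to 1.01, edgeR adjusted p = 0.104), and without control sample 1 it did (0.78, edgeR adjusted p = 0.0319). Against the senescent control the log2 difference of IL6 was -2.39 (SE 0.19, edgeR adjusted p = 6.28e-06). LIF, a relative of IL6, read 36.7 and 29.5 CPM in control, 112 and 112 in senescent control and 38.3 and 44.7 in knockout samples. Its difference from control of 0.33 had an edgeR adjusted p of 0.0551, and was called in 8 of 14 alternatives (0.22 to 0.51 over the fits run). The difference of LIF from the senescent control was -1.43 (SE 0.13, edgeR adjusted p = 1.75e-05). CSF3, a granulocyte growth factor, had no count in control, 12 in knockout and 379 in senescent control samples, so it was at least 4.95-fold higher in knockout than control samples. IL32, an inflammatory cytokine, was as high in the knockout as in the senescent group: 1.66 and 1.43 CPM in control, 4.28 and 4.15 in senescent control and 5.54 and 4.80 in knockout samples (1.73 (SE 0.19, edgeR adjusted p = 2.96e-05) from control, 95% interval against senescent control -0.07 to 0.66). CSF1, the macrophage growth factor, read 59.6 and 44.7 CPM in control and 26.1 and 26.7 in knockout samples, with a log2 difference of -0.98 (SE 0.12, edgeR adjusted p = 6.43e-05). In the list of 19, 6 were above and 3 below control, against 19.7% and 26.7% over all genes, and fewer were below control without knockout sample 1. Against the senescent control 11 were lower, 7 or 8 when a knockout or senescent control sample was left out.

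Among CC chemokines, CCL2, a monocyte attractant, read 39.5 and 41.3 CPM in control, 57.1 and 64.5 in senescent control and 10.5 and 13.1 in knockout samples. The knockout samples were below both groups without overlap, with log2 differences of -1.77 (SE 0.15, edgeR adjusted p = 3.52e-06) from control and -2.36 (SE 0.15, edgeR adjusted p = 1.08e-06) from the senescent control. CCL20 had no count in control, 4 in knockout and 113 in senescent control samples, at least 1.65-fold above control with edgeR adjusted p = 0.0574 (0.0417 and 0.0402 without senescent control sample 1 or 2). 4 genes of this list could be tested, of which 0 rose and 1 fell.

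Several secreted proteases and their inhibitors had intermediate levels. MMP1, a collagenase, read 125 and 137 CPM in control, 3049.7 and 3090.4 in senescent control and 562 and 577 in knockout samples. It rose over control by 2.12 (SE 0.10, edgeR adjusted p = 7.52e-08) and differed from the senescent control by -2.43 (SE 0.10, edgeR adjusted p = 5.13e-08) on the log2 scale. MMP3, stromelysin, read 8.75 and 7.66 CPM in control, 408 and 396 in senescent control and 43.3 and 43.8 in knockout samples, a rise over control of 2.41 (SE 0.12, edgeR adjusted p = 7.52e-08). MMP2, a gelatinase, was instead lower in knockout (168 and 175 CPM) than in control samples (332 and 275 CPM), with a log2 difference of -0.82 (SE 0.10, edgeR adjusted p = 4.38e-05). MMP10, another stromelysin, lay at the control level, with 0.263 and 0.314 CPM in control, 1.70 and 1.92 in senescent control and 0.346 and 0.313 in knockout samples. The inhibitor TIMP1 read 598 and 517 CPM in control, 1017 and 994 in senescent control and 512 and 538 in knockout samples, so control and knockout samples overlapped (95% interval of the log2 difference -0.30 to 0.12). TIMP3 read 776 and 851 CPM in knockout against 388 and 476 in senescent control samples (0.91 (SE 0.11, edgeR adjusted p = 1.78e-04)). The list of 16 held 5 higher and 4 lower members against control (19.7% and 26.7% over all genes), the lower ones falling to 1 without control sample 1 or either knockout sample.

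Plasminogen activators, serpins and coagulation factors leaned higher, with 11 of 14 above and 2 below control (median 0.78), or 1 below without control sample 1 or either knockout sample. SERPINB2, an inhibitor of urokinase, read 15.5 and 16.8 CPM in control, 248 and 224 in senescent control and 75.1 and 74.9 in knockout samples, a rise over control of 2.22 (SE 0.10, edgeR adjusted p = 5.48e-08). PLAU, urokinase itself, read 553 and 453 CPM in control, 1778 and 1761 in senescent control and 849 and 938 in knockout samples (0.83 (SE 0.10, edgeR adjusted p = 7.08e-05)). Both were intermediate without overlap. F3, tissue factor, read 527 and 474 CPM in control, 1009 and 1129 in senescent control and 996 and 1114 in knockout samples. Its rise over control was 1.08 (SE 0.10, edgeR adjusted p = 5.72e-06), and its log2 difference from the senescent control was -0.02 (SE 0.10). SERPINE2, protease nexin 1, stood above both groups, at 487 and 492 CPM in knockout against 306 and 274 in control and 320.3 and 309.8 in senescent control samples (0.76 (SE 0.09, edgeR adjusted p = 3.54e-05) over control).

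**Figure D4:**
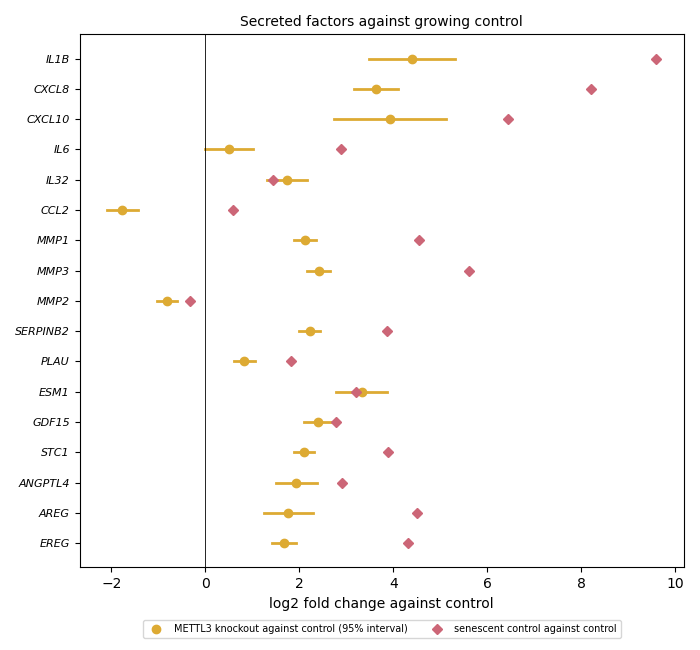
Log2 fold change against control of 17 secreted factors in METTL3 knockout samples (circles, with 95% intervals) and in senescent control samples (diamonds, without intervals). IL1B, CXCL8, MMP1, MMP3, AREG and EREG lie between 0 and the senescent control value, ESM1, IL32 and GDF15 lie close to it, and CCL2 and MMP2 lie below 0.

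Of 27 tested growth factors of the SASP, 16 rose and 3 fell against control (median 0.67), and 14 were below and 2 above the senescent control. Without knockout sample 1 a single member was below control, and without knockout sample 2 a single one was above the senescent control. Some ligands of the EGF receptor family were intermediate: EREG, epiregulin, read 21.6 and 26.96 CPM in control, 500.5 and 469 in senescent control and 73.8 and 80.5 in knockout samples (1.67 (SE 0.11, edgeR adjusted p = 6.06e-07) over control). AREG, amphiregulin, read 0.613 and 0.851, 16.9 and 16.3 and 2.31 and 2.66 CPM in the same order (1.76 (SE 0.24, edgeR adjusted p = 1.25e-04)). HBEGF, another ligand of the receptor, was level with the senescent control, at 44.5 and 48.1 CPM in knockout, 45.5 and 44.5 in senescent control and 26.1 and 25.5 in control samples (0.84 (SE 0.10, edgeR adjusted p = 5.16e-05)). STC1, stanniocalcin 1, read 247 and 260.2 CPM in control, 3729 and 3752 in senescent control and 1027 and 1139.9 in knockout samples (2.09 (SE 0.10, edgeR adjusted p = 5.48e-08)). BMP2, a bone morphogenetic protein, read 6.52 and 4.88 CPM in control, 142 and 131 in senescent control and 20.95 and 20.1 in knockout samples (1.85 (SE 0.14, edgeR adjusted p = 1.16e-06)). GDF15, a stress-induced cytokine of the TGF-beta family, was near the senescent control: it read 15.4 and 11.2 CPM in control, 92.7 and 89.5 in senescent control and 68.5 and 71.1 in knockout samples. It rose over control by 2.40 (SE 0.14, edgeR adjusted p = 1.98e-07), and its difference from the senescent control was -0.38 (95% interval -0.66 to -0.11, edgeR adjusted p = 0.0595). That difference passed the test in 5 of 14 alternatives (-0.41 to -0.34 over the fits run). FGF1 exceeded both groups, at 26.96 and 25.9 CPM in control, 18.1 and 15.8 in senescent control and 59.6 and 59.8 in knockout samples (1.17 (SE 0.10, edgeR adjusted p = 4.00e-06) and 1.82). BMP4 fell, from 7.92 and 8.78 CPM in control to 2.94 and 3.13 in knockout samples (-1.46 (SE 0.16, edgeR adjusted p = 2.12e-05)). The IGF-binding proteins, another group of SASP products, had 1 of 8 higher (IGFBP7, 0.57 (SE 0.12, edgeR adjusted p = 0.00214)) and 6 lower, the latter 2 without control sample 1 and 3 without either knockout sample. IGFBP6 was among the lower, at 39.1 and 32.5 CPM in control and 16.5 and 17.5 in knockout samples (-1.07 (SE 0.17, edgeR adjusted p = 4.14e-04)).

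NF-kB is the transcription factor family most often placed above SASP cytokines. Of 21 of its subunits, feedback genes and adhesion targets, 8 were higher and 4 lower than control (median 0.11), while 14 were lower and 0 higher than the senescent control (median -0.61), against 8.62% of all genes lower. Without control sample 2 the median against control turned to -0.10, and without knockout sample 1 the lower calls dropped to 1. ICAM1, an adhesion molecule, read 12.8 and 10.03 CPM in control, 97.9 and 86.01 in senescent control and 21.6 and 28.9 in knockout samples (1.15 (SE 0.16, edgeR adjusted p = 1.49e-04) over control). PTGS2, cyclooxygenase 2, read 1.31 and 0.806 CPM in control, 21.2 and 16.8 in senescent control and 4.10 and 4.90 in knockout samples (2.08 (SE 0.25, edgeR adjusted p = 5.55e-05)). TNFAIP3, a feedback inhibitor, read 9.72 and 9.18 CPM in control, 49.6 and 44.6 in senescent control and 15.1 and 15.7 in knockout samples (0.71 (SE 0.13, edgeR adjusted p = 7.79e-04)). NFKBIZ, a nuclear co-factor of NF-kB, stood closer to the senescent control, at 23.1 and 25.98 CPM in control, 100.5 and 89.3 in senescent control and 60.1 and 64.5 in knockout samples (1.34 (SE 0.10, edgeR adjusted p = 1.08e-06)). All 4 were intermediate without overlap, where 32.5% of all genes were higher than control without overlap. The subunit RELA itself read 110.0 and 87.6 CPM in control, 107 and 108 in senescent control and 86.3 and 92.1 in knockout samples, with the control and knockout samples overlapping.

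Of 24 genes induced by RAS and ERK signalling, 10 were higher and 4 lower than control, against 19.7% and 26.7% over all genes. The ERK phosphatase DUSP6 read 81.5 and 76.9 CPM in control, 300.4 and 295 in senescent control and 152 and 170.0 in knockout samples (1.03 (SE 0.10, edgeR adjusted p = 7.09e-06)), and DUSP4 read 8.40 and 7.93, 34.9 and 33.5 and 19.9 and 19.3 CPM in that order (1.26 (SE 0.14, edgeR adjusted p = 3.41e-05)). DUSP5, another of the family, was as high as in the senescent control, at 156 and 165 CPM in knockout against 153 and 159 in senescent control and 89.1 and 79.2 in control samples (0.93 (SE 0.09, edgeR adjusted p = 1.04e-05)). EGR1, an immediate early transcription factor, went below both, at 36.3 and 33.6 CPM in knockout, 62.4 and 45.8 in control and 69.97 and 67.8 in senescent control samples (-0.63 (SE 0.14, edgeR adjusted p = 0.00345) from control). Against the senescent control 13 were lower and 0 higher, where 8.62% of all genes were lower, in the samples whose HRAS RNA was also lower. Whether the HRAS level plays a part was not tested.

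Targets of p53 were called higher more often than lower, 16 against 3 of 28 (median 0.39), where 19.7% of all genes were higher and 26.7% lower. Without knockout sample 2 the counts were 12 and 1. RRM2B, the p53-inducible ribonucleotide reductase subunit, read 52.8 and 78.7 CPM in control, 182 and 178 in senescent control and 189 and 181 in knockout samples (1.49 (SE 0.15, edgeR adjusted p = 1.67e-05)). PMAIP1, which encodes NOXA, read 57.5 and 69.4 CPM in control, 127 and 139 in senescent control and 132 and 143 in knockout samples (1.11 (SE 0.12, edgeR adjusted p = 1.95e-05)). Both lay at the senescent level. BTG2, an antiproliferative gene, lay above it, at 54.7 and 52.1 CPM in knockout against 25.7 and 26.9 in senescent control and 22.98 and 20.8 in control samples (1.29 (SE 0.10, edgeR adjusted p = 1.27e-06) over control, 1.02 over senescent control). SPATA18, a gene of mitochondrial quality control, read 16.7 and 18.3 CPM in control, 24.8 and 25.2 in senescent control and 40.3 and 38.02 in knockout samples (1.16 (SE 0.10, edgeR adjusted p = 2.76e-06)).

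Of 41 tested interferon-stimulated genes, 27 rose and 1 fell against control (median 0.84), with 13 not called. Against the senescent control 22 rose and 1 fell (median 0.76), with 18 not called, where 7.17% of all genes were higher. IFI44L, an interferon-induced protein, read 0.525 and 0.896 CPM in control, 2.03 and 2.10 in senescent control and 10.2 and 14.9 in knockout samples (4.14 (SE 0.36, edgeR adjusted p = 1.30e-05) over control). OAS2, a sensor of double-stranded RNA, read 0.350 and 0.403 CPM in control, 1.32 and 1.78 in senescent control and 4.04 and 7.93 in knockout samples (3.98 (SE 0.47, edgeR adjusted p = 1.08e-04)). IFI44 read 0.875 and 0.985, 1.43 and 1.92 and 4.50 and 7.20 CPM in the same order (2.65 (SE 0.32, edgeR adjusted p = 7.99e-05)). In each of the 3 the knockout samples were highest, and knockout sample 2 was above knockout sample 1. IFIT1, which binds foreign RNA caps, read 4.68 and 6.09 CPM in control, 5.21 and 6.94 in senescent control and 14.5 and 23.2 in knockout samples (1.81 (SE 0.24, edgeR adjusted p = 2.42e-04)). MX1, an antiviral GTPase, read 1.75 and 1.21 CPM in control, 2.47 and 3.29 in senescent control and 5.25 and 10.3 in knockout samples (2.40 (SE 0.37, edgeR adjusted p = 5.81e-04)). Its excess over the senescent control of 1.43 was called in only 8 of 14 alternatives, and was 0.85 without knockout sample 2. OAS1 had 3 counts in control and 52 in knockout samples, a scaled ratio of 21.5 (95% counting interval 6.95 to 107). IFI6 rose by 2.60 (SE 0.18, edgeR adjusted p = 7.50e-07) and SAMD9L, a growth-restraining gene, by 1.91 (SE 0.16, edgeR adjusted p = 4.70e-06). SAMD9L read 77.8 and 94.4 CPM in knockout and 69.7 and 79.3 in senescent control samples, which overlapped.

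The number of calls depended on which samples were included, and not on knockout sample 2 alone. Without knockout sample 2, 18 of the interferon-stimulated genes rose against control and 12 against the senescent control, and without senescent control sample 1 or 2 the latter count was 12 or 14. OAS2 lost its call against the senescent control without either control sample (edgeR adjusted p = 0.0602 and 0.0604). IFNE, a type I interferon, read 0.175 and 0.403 CPM in control, 12.4 and 13.2 in senescent control and 8.20 and 7.67 in knockout samples (4.75 (SE 0.33, edgeR adjusted p = 7.91e-07) over control), and its order differed from that of the interferon-stimulated genes. IRF1, the member called lower, read 14.4 and 10.9 CPM in control and 9.18 and 8.87 in knockout samples (-0.49 (SE 0.14, edgeR adjusted p = 0.0130)). That call was made in 9 of 14 alternatives, and the losses included the fits without control sample 1 or either knockout sample. Transfected siRNA and lentivirus were part of the protocol, and their part in this pattern was not tested.

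**Figure D5:**
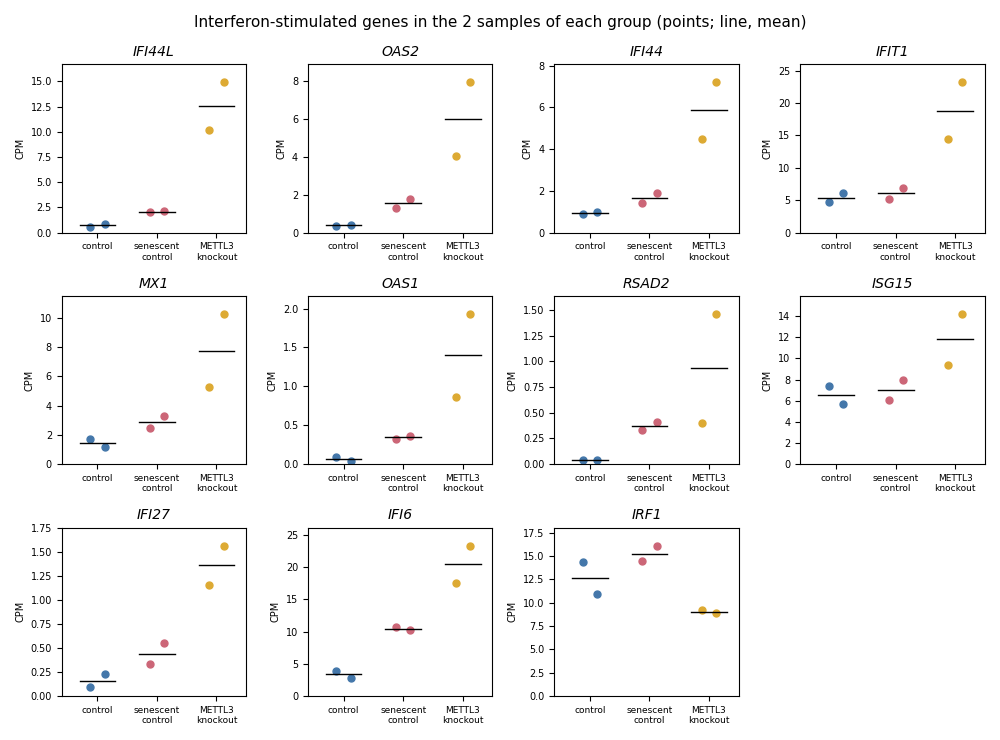
Levels in CPM (vertical axis, from 0) of 11 interferon-stimulated genes in the 2 control, 2 senescent control and 2 METTL3 knockout samples; points are samples and lines are group means. IFI44L, OAS2, IFI44 and IFIT1 are highest in both knockout samples with sample 2 above sample 1, and IRF1 is lowest in the knockout samples.

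Most genes of the NRF2 antioxidant response were lower than in either group. Of 24 tested, 21 were lower and 0 higher than control (median -0.73), and 18 lower and 1 higher than the senescent control (median -0.56). NQO1, a quinone reductase, read 244 and 218 CPM in control, 179.6 and 171 in senescent control and 54.5 and 53.9 in knockout samples (-2.09 (SE 0.10, edgeR adjusted p = 5.48e-08) from control, -1.69 (SE 0.10, edgeR adjusted p = 4.07e-07) from senescent control). TXNRD1, thioredoxin reductase 1, read 863 and 834, 508 and 533 and 351 and 363 CPM in that order (-1.25 (SE 0.08, edgeR adjusted p = 3.91e-07)). Neither gene overlapped between groups. The ferritin chains were lower too, with FTH1 at 1513 and 1406 CPM in knockout against 2798 and 2348 in control samples (-0.82 (SE 0.10, edgeR adjusted p = 4.37e-05)) and FTL at 2313 and 2229.6 against 3601 and 3242 CPM (-0.59 (SE 0.08, edgeR adjusted p = 1.69e-04)). AKR1B1, aldose reductase, had the opposite course in senescence and the same end: 219.8 and 189.6 CPM in control, 681 and 610.3 in senescent control and 153 and 163 in knockout samples (-0.37 (SE 0.11, edgeR adjusted p = 0.0135) from control). That call was made in 11 of 14 alternatives, and the losses included the fits without either knockout sample. SLC7A11, the cystine transporter, read 54.8 and 132 CPM in control, so far apart that its direction against the knockout samples (78.6 and 81.2 CPM) turned from -0.22 to 0.59 without control sample 2 (edgeR adjusted p = 2.56e-05). It was lower than in the senescent control, at 279.8 and 319 CPM (-1.91 (SE 0.35, edgeR adjusted p = 0.0113)).

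Many glycolytic genes showed a like order. Of 22 genes of glucose uptake and glycolysis, 17 were lower and 2 higher than control (median -0.57), and 15 were lower than the senescent control, 9 to 11 when a knockout or senescent control sample was left out. GAPDH read 4933 and 4427 CPM in control, 3202 and 3182 in senescent control and 2253 and 2188 in knockout samples (-1.08 (SE 0.09, edgeR adjusted p = 2.90e-06)). LDHA, lactate dehydrogenase A, read 879.8 and 834 CPM in control, 707 and 704 in senescent control and 462 and 441 in knockout samples (-0.93 (SE 0.09, edgeR adjusted p = 9.68e-06)). PFKP, a phosphofructokinase, read 187 and 166, 94.3 and 93.04 and 67.2 and 67.3 CPM (-1.39 (SE 0.09, edgeR adjusted p = 4.17e-07)). HK2, hexokinase 2, was one of the higher, at 63.99 and 52.9 CPM in control, 186 and 192 in senescent control and 82.8 and 91.8 in knockout samples (0.58 (SE 0.10, edgeR adjusted p = 7.50e-04)).

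The 10 genes with the largest shared deficit, ranked by the smaller of the differences from control and from senescent control, had an endoplasmic reticulum protein at the top. LNPK, which stabilises junctions of the endoplasmic reticulum, read 84.3 and 151 CPM in control, 124 and 138 in senescent control and 26.96 and 28.1 in knockout samples. The control samples were apart, but every one of the 4 other samples was above the knockout samples (-2.09 (SE 0.23, edgeR adjusted p = 8.36e-05) from control, -2.25 (SE 0.23, edgeR adjusted p = 1.62e-04) from senescent control). PEG10, an imprinted gene derived from a retrotransposon, read 191 and 171, 217 and 221 and 58.9 and 57.7 CPM (-1.63 (SE 0.10, edgeR adjusted p = 2.06e-07) from control). PIEZO2, a mechanically gated channel, read 37.2 and 33.4, 39.8 and 40.1 and 12.9 and 13.5 CPM (-1.42 (SE 0.11, edgeR adjusted p = 1.37e-06)). TMED8 (-1.43), VAT1L (-1.42), CEND1 (-1.58) and the integrin ITGB8 (-1.78) showed the same order on the log2 scale against control. For PEG10, PIEZO2, TMED8 and VAT1L the control and senescent control samples lay within a narrow band, and only the knockout samples stood apart. COL14A1, also of the 10, read 6.39 and 8.02 CPM in control, 2.58 and 2.42 in senescent control and 0.462 and 1.30 in knockout samples. Its deficit against the senescent control was called in 10 of 14 alternatives, and was -0.94 without knockout sample 2. In all, 711 genes were below both groups and 325 above both. METTL3, the targeted gene, was itself below both. Off-target effects of the siRNA were not tested.

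Genes above both groups, ranked in the same way, included besides the interferon-stimulated genes a potassium channel, an actin-binding protein and a folate enzyme. KCNK6 read 6.39 and 4.75 CPM in control, 5.04 and 3.97 in senescent control and 20.4 and 17.9 in knockout samples (1.78 (SE 0.19, edgeR adjusted p = 1.68e-05) over control). CORO6, a coronin, read 3.63 and 2.598, 2.41 and 3.74 and 8.54 and 9.33 CPM (1.52 (SE 0.20, edgeR adjusted p = 1.14e-04)), and ALDH1L2, the mitochondrial folate dehydrogenase, 28.6 and 37.3, 31.3 and 36.1 and 76.6 and 89.1 CPM (1.33 (SE 0.13, edgeR adjusted p = 8.65e-06)). In each, control and senescent control samples lay together below the knockout samples.

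The protein synthesis and respiration lists were low in the knockout samples. Of 49 cytosolic ribosomal protein genes, 46 were lower and 0 higher than control (median -0.61), and 1 higher and 2 lower than the senescent control. RPL3 read 550.2 and 489.8 CPM in control, 307 and 299 in senescent control and 276 and 269 in knockout samples (-0.93 (SE 0.09, edgeR adjusted p = 8.90e-06)). RPLP0 read 456 and 404, 252 and 248 and 242 and 229 CPM (-0.87 (SE 0.09, edgeR adjusted p = 1.75e-05)). Neither was called against the senescent control. The 3 not called were RPL7, RPS24 and RPSA. RPL7 read 36.8 and 52.3 CPM in control and 42.3 and 37.5 in knockout samples, and was called lower without control sample 1 (-0.38, edgeR adjusted p = 0.00769). Of 39 nuclear genes of the respiratory chain, 29 were lower and 0 higher (median -0.44), and 18 were lower without knockout sample 2. SDHC, a subunit of succinate dehydrogenase, read 137 and 122 CPM in control, 101 and 97.5 in senescent control and 85.8 and 83.3 in knockout samples (-0.62 (SE 0.09, edgeR adjusted p = 1.59e-04)).

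Matrix and contractile genes were a mixture. Of 12 fibroblast markers 8 were lower and 1 higher than control, or 8 and 2 without control sample 2. THY1, a fibroblast surface glycoprotein, read 477 and 395 CPM in control, 182 and 201 in senescent control and 157 and 167 in knockout samples (-1.43 (SE 0.11, edgeR adjusted p = 1.55e-06)). DCN, the proteoglycan decorin, read 906 and 941 CPM in control, 154 and 198 in senescent control and 251 and 270.2 in knockout samples (-1.83 (SE 0.11, edgeR adjusted p = 3.03e-07)). THY1 was not called against the senescent control (-0.24 (SE 0.11, edgeR adjusted p = 0.164)). DCN stood above it (0.57 (SE 0.11, edgeR adjusted p = 0.00406)), a call lost in the fit on 4 samples, without knockout sample 2 and without senescent control sample 1 (edgeR adjusted p = 0.0728, 0.0587 and 0.0713). PDGFRA, a receptor for platelet-derived growth factor, was at 150.02 and 152 CPM in knockout against 259 and 305 in control and 333 and 335 in senescent control samples (-0.90 (SE 0.10, edgeR adjusted p = 1.95e-05) from control). Collagens had 7 of 25 higher and 9 lower, not far from the 19.7% and 26.7% over all genes, or 6 and 4 without knockout sample 1 and 2 and 4 without knockout sample 2. COL6A3 read 4513 and 3483 CPM in control, 2566 and 2590.4 in senescent control and 1562 and 1652 in knockout samples (-1.31 (SE 0.12, edgeR adjusted p = 4.73e-06)), below both groups. COL3A1 read 429.6 and 368 CPM in control, 247 and 306 in senescent control and 379 and 431 in knockout samples, so knockout and control overlapped (95% interval of the difference -0.27 to 0.31). THBS1, the matricellular protein thrombospondin 1, fell from 7202 and 6034 CPM in control to 2031 and 2221 in knockout samples (-1.64 (SE 0.13, edgeR adjusted p = 1.83e-06)).

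Some contractile and mechanosensitive genes stood at the control level in the knockout samples. ACTA2, smooth muscle actin, read 366 and 331 CPM in control, 152 and 189.7 in senescent control and 333 and 332 in knockout samples. Its log2 difference from control was -0.07 (95% interval -0.30 to 0.17) and from the senescent control 0.96 (SE 0.11, edgeR adjusted p = 9.33e-05). CCN2, a target of the YAP co-activator, read 677 and 547 CPM in control, 239 and 309 in senescent control and 599.7 and 690.3 in knockout samples (0.08 from control, 95% interval -0.22 to 0.37, and 1.23 (SE 0.14, edgeR adjusted p = 1.10e-04) from senescent control). ANKRD1, another such target, exceeded both groups at 14.5 and 17.6 CPM in control, 6.74 and 5.52 in senescent control and 33.7 and 34.7 in knockout samples (1.09 (SE 0.17, edgeR adjusted p = 4.54e-04)). Others stayed below control: LMOD1, leiomodin 1, read 45.4 and 37.2 CPM in control and 15.7 and 17.9 in knockout samples (-1.30 (SE 0.13, edgeR adjusted p = 9.34e-06)), and AJUBA, a LIM protein of the YAP pathway, 74.7 and 69.5 and 27.9 and 27.1 CPM (-1.39 (SE 0.09, edgeR adjusted p = 5.04e-07)). LMOD1 nevertheless exceeded the senescent control, by 1.34 to 1.6 on the log2 scale over the fits run. AJUBA was not called against it (0.04 to 0.12). MYOCD, the co-activator of smooth muscle genes, read 9.41 and 11.2 CPM in control, 6.53 and 5.62 in senescent control and 2.598 and 2.24 in knockout samples, below both groups (-2.09 (SE 0.19, edgeR adjusted p = 5.85e-06) from control). Of 17 smooth muscle genes 2 were higher and 8 lower than control (1 and 5 without knockout sample 1, 1 and 6 without knockout sample 2), and 9 higher and 1 lower than the senescent control. Of 22 YAP and TEAD targets 4 were higher and 10 lower than control, and 9 higher and 1 lower than the senescent control. For both lists the shares over all genes were 19.7% higher and 26.7% lower than control, and 7.17% and 8.62% against the senescent control. Leaving out senescent control sample 1 cut the higher members against the senescent control to 5 in each of these lists.

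GLB1, the gene of the lysosomal galactosidase used to stain senescent cells, read 95.6 and 82.5 CPM in control, 88.6 and 90.1 in senescent control and 83.4 and 93.5 in knockout samples, which overlap (log2 difference from control -0.01, 95% interval -0.25 to 0.23). Of 34 lysosome and autophagy genes, 5 were higher and 11 lower than control, shares near the 19.7% and 26.7% over all genes. These counts turned to 9 and 6 without control sample 1, 4 and 6 without knockout sample 1, 3 and 5 without knockout sample 2 and 5 and 7 without either senescent control sample. SQSTM1, the autophagy receptor p62, read 675 and 592 CPM in control, 725 and 672 in senescent control and 339 and 353 in knockout samples (-0.87 (SE 0.10, edgeR adjusted p = 2.51e-05)). CTSB, cathepsin B, read 862 and 760.4 CPM in control, 1099 and 1109.7 in senescent control and 709.9 and 746 in knockout samples, with a log2 difference from the senescent control of -0.60 (SE 0.09, edgeR adjusted p = 5.71e-04). In the ATF4 amino acid response 10 of 20 genes were lower and 1 higher (3 without control sample 2), among the lower PHGDH, which starts serine synthesis (-1.82 (SE 0.18, edgeR adjusted p = 9.28e-06)). Chaperones of the unfolded protein response had 5 of 21 higher and 8 lower, again not far from the shares over all genes of 19.7% and 26.7%, the latter 5 without knockout sample 1 and the former 3 without knockout sample 2. HSPA5, the chaperone BiP, read 732 and 709.6 CPM in control and 520.0 and 557 in knockout samples (-0.42 (SE 0.08, edgeR adjusted p = 0.00134)). Of 31 genes of cholesterol and fatty acid synthesis 15 were lower and 2 higher, but 4 and 6 were lower without knockout sample 1 or 2, 9 without senescent control sample 2, and 6 were higher without control sample 2.

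Among genes with a group level of at least 5 CPM, the largest rises over control included several outside the lists. FOS, an AP-1 subunit, read 1.01 and 0.806 CPM in control, 10.6 and 10.5 in senescent control and 12.1 and 10.7 in knockout samples (3.64 (SE 0.22, edgeR adjusted p = 2.53e-07)). GABRA2, a GABA receptor subunit, read 5.08 and 7.03, 273 and 259.5 and 58.5 and 63.9 CPM (3.34 (SE 0.15, edgeR adjusted p = 5.48e-08)), and IL13RA2, the decoy receptor for interleukin-13, 0.7003 and 0.896, 26.2 and 25.6 and 7.39 and 6.88 CPM (3.15 (SE 0.18, edgeR adjusted p = 1.58e-07)). GABRA2 and IL13RA2 were intermediate, whereas FOS was level with the senescent control. DKK2, a WNT regulator (3.36), ESM1, an endothelial proteoglycan (3.33), the snoRNA SNORA81 (3.32) and CXADR, the coxsackievirus and adenovirus receptor (2.81), also rose on the log2 scale. KYNU, kynureninase, rose by 2.80 on the log2 scale, with a difference from the senescent control of -2.26. The largest falls were those of SAMD11, from 5.73 and 4.61 CPM in control to 0.404 and 0.313 in knockout samples (-3.84 (SE 0.33, edgeR adjusted p = 4.00e-06)), and TMEM119, from 7.31 and 5.64 to 0.462 and 0.469 CPM (-3.78 (SE 0.28, edgeR adjusted p = 1.21e-06)). NEURL1B, a ubiquitin ligase of Notch ligands (-3.38), GRIA4, a glutamate receptor subunit (-3.08), TMSB15A, a thymosin (-3.05), TOX, a nuclear factor (-3.02), and DAB1, an adaptor of reelin signalling (-2.84), were also among the 15 with the largest falls, as log2 differences, together with 5 histone genes.

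For a few genes the distance from the senescent control could be bounded most tightly. Among genes at least 2 (log2) above control and not called against the senescent control, SEMA6D, a semaphorin, read 24.6 and 32.6 CPM in control, 172 and 175 in senescent control and 150.1 and 164 in knockout samples. Its 95% interval against the senescent control was -0.39 to 0.10, and its rise over control 2.46 (SE 0.12, edgeR adjusted p = 9.25e-08). USP53, a ubiquitin peptidase family member, read 47.6 and 66.6, 192 and 206 and 226 and 234 CPM, with an interval of -0.07 to 0.49, and ZNF432, a zinc finger gene, 11.7 and 15.05, 60.3 and 58.4 and 59.8 and 61.95 CPM, with an interval of -0.25 to 0.32. USP53 was called against the senescent control without control sample 1 or 2 (0.20, edgeR adjusted p = 0.014 and 0.0143). Among the genes at least 2 below control, PTGER2, a prostaglandin E2 receptor, read 87.4 and 80.4 CPM in control, 17.7 and 18.2 in senescent control and 21.2 and 20.3 in knockout samples (interval against senescent control 0.00 to 0.42). ID2, an inhibitor of differentiation factors, read 162 and 157, 33.1 and 29.6 and 35.2 and 34.2 CPM (interval -0.07 to 0.36), and CLDN11, a claudin, 823 and 704, 86.6 and 103 and 115 and 114 CPM (interval 0.03 to 0.52). C1R, a complement protease, read 36.5 and 30.6, 5.48 and 6.35 and 5.95 and 5.74 CPM (interval -0.35 to 0.31), and MXRA5, a matrix-remodelling gene, 41.8 and 35.5, 9.49 and 8.04 and 7.79 and 6.62 CPM (interval -0.62 to 0.06). CLDN11 was called higher than in the senescent control without control sample 1 or 2 (0.27, edgeR adjusted p = 0.0105 and 0.0106). An interval that spans 0 leaves differences of its own width possible, and does not show that the groups were equal.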

How the data were processed

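RNA-seq of 10 IMR90 samples in 5 groups of 2 was analysed. The deposited table holds whole-number counts per gene. Per the submitters' processing notes, the authors used Bowtie2 (version not given), RSEM 1.2.12 and build hg19, with annotation, strandedness and handling of multi-mapping reads not given in the sources used here. In all it lists 57736 gene identifiers, 39501 with a symbol. Because multi-mapping is not described, values of near-identical genes (histones, ribosomal proteins, keratin-associated proteins) are uncertain.

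In R 4.3.3, genes passing edgeR 4.0.16's expression filter (minimum count 10) were kept (16760), libraries scaled by TMM and group means fitted over all 10 samples with the robust quasi-likelihood F test (limma 3.58.1 underneath; biological coefficient of variation 9.22%, 5 residual degrees of freedom before moderation). P-values are two-sided and Benjamini-Hochberg adjusted over all genes tested, with a threshold of 0.05. Fold changes are knockout minus the other group on the log2 scale, from 2 samples a group; the standard error (SE) is the estimate divided by the square root of F, and intervals are at 95%. A gene with no count in a group has a bound from a floor of 3 counts over the group, and one with 1 to 3 counts a count ratio with an exact interval. Intervals from counts cover counting error only. The script was tested on simulated counts.

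The 39 gene lists (870 symbols, 854 in the table, 785 tested) and the samples compared were chosen with earlier results of these data known, and counts of called members carry no set test. Symbols outside the table were not analysed here, and a few list members are not reported. Genes are named by rule: METTL3, METTL14 and HRAS; up to 4 members of each list with the largest change past the threshold, exceptions to a list's direction, and known senescence genes; the 15 largest rises and falls (5 CPM or more in the higher group, no overlap); the 10 with the largest change of one sign against both other groups; and the 10 of at least 2 (log2) against control with the narrowest interval against the senescent control. Further list members were chosen as examples after their values were seen. Promoters came from a RefSeq table on another build than the counts, matched by symbol. Alternatives were RLE and upper-quartile scaling, DESeq2 1.42.0, other expression filters, fits on 4 or 6 samples, a replicate block and each sample left out.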

Additional observations from a re-analysis of the deposited data

How the results depend on the processing

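Fitted on the 4 samples compared, 2582 genes were lower in knockout than in control samples, 2526 were higher and 3095 lower than in the senescent control, and 2716 were lower in senescent control than in control samples. Leaving out each sample gave 2232 to 4395 higher and 2782 to 4734 lower in knockout than control samples, 501 to 2136 higher and 689 to 2683 lower in knockout than senescent control samples, and 2372 to 4467 higher and 2700 to 4507 lower in senescent control than control samples; where a group was left with 1 sample, that sample was assumed to vary like the other groups. The cause of these shifts was not tested. Deviations of same-numbered samples were weakly correlated (control and knockout -0.0669, range over pairs of groups -0.265 to 0.199). Whether same-numbered samples were handled together cannot be told from these correlations. With a replicate block, 3294 and 4392 genes were higher and lower than control and 1145 and 1393 than the senescent control. RLE scaling gave 3524 higher and 4070 lower than control and DESeq2 2940 and 3397. KIF14 was called at -0.47 without control sample 1 and at 0.56 without control sample 2, and SLC7A11 at -0.70 and 0.59. Over the named genes and alternatives against control, 3340 values kept their call and direction, 129 lost the call, 24 gained one, and 41 uncalled values changed sign. The median SE was 0.15 with 2 samples a group, and the smallest detectable difference was not tested; genes with few counts rest on single reads.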

Other observations

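Other gene groups moved against control as well. Long noncoding RNAs, antisense RNAs, pseudogenes and snoRNAs were called higher more often than lower: 32.6% of 758 tested lincRNAs were higher and 4.22% lower, 24.3% and 6.83% of 703 antisense RNAs, 30.5% and 5.86% of 751 pseudogenes and 45.5% and 0.813% of 123 snoRNAs. Of 13333 protein-coding genes 17.1% were higher and 31.7% lower. The noncoding classes were scarce, with median control levels of 0.534 to 0.823 CPM against 23.8 for protein-coding genes. The share of counts in lincRNAs and antisense RNAs was 1.61% and 2.06% in the control, 2.99% and 2.77% in the senescent control and 2.67% and 2.82% in the knockout samples. Between knockout and senescent control the median log2 differences of lincRNAs, antisense RNAs, pseudogenes and snoRNAs were 0.0996 to 0.128. That of protein-coding genes was -0.0141. Whether antisense reads come from their sense partners cannot be told, since the strand setting is not given.

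Among genes of the m6A machinery besides METTL3, METTL14 read 19.5 and 28.3 CPM in control, 25.6 and 26.02 in senescent control and 29.1 and 29.9 in knockout samples. Its difference from control was 0.31 (SE 0.14, edgeR adjusted p = 0.0901), and it was called without control sample 2 (0.64, edgeR adjusted p = 1.23e-05). RBM15, an adaptor of the writer complex, read 34.5 and 38.4 CPM in control, 26.5 and 26.6 in senescent control and 24.8 and 25.3 in knockout samples (-0.54 (SE 0.09, edgeR adjusted p = 5.21e-04)). IGF2BP3, a reader of the mark, read 177 and 270.0, 405 and 409 and 362 and 370.2 CPM (0.71 (SE 0.15, edgeR adjusted p = 0.00301)), so both stood at the senescent level. Of 20 genes in the list 3 were higher and 7 lower (median -0.07), not far from the 19.7% and 26.7% over all genes. These counts shifted when either knockout sample or control sample 2 was left out.

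Of 14 genes of antigen presentation 7 were higher and 1 lower than control, against 19.7% and 26.7% over all genes. These counts shifted when knockout sample 2 or either control sample was left out. HLA-B, which presents peptides to T cells, read 44.95 and 35.03 CPM in control, 53.2 and 52.6 in senescent control and 72.3 and 78.5 in knockout samples (0.91 (SE 0.11, edgeR adjusted p = 5.88e-05)). LCE1F and IVL, genes of the cornified envelope of skin, had 771 and 143 counts over the senescent control samples. LCE1F had 23 counts in knockout and 1 in control samples, a scaled ratio of 28.5 (95% counting interval 4.62 to 1173), and IVL had 8 and 0, at least 3.30-fold higher. DLL4, a Notch ligand, read 22.1 and 17.8 CPM in control, 11.4 and 9.13 in senescent control and 4.62 and 4.22 in knockout samples, below both groups (-2.18 (SE 0.18, edgeR adjusted p = 2.93e-06) from control). MT2A, a metallothionein, read 506 and 439 CPM in control, 1035 and 949 in senescent control and 461 and 464 in knockout samples, so knockout and control overlapped (95% interval -0.30 to 0.23).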
